A study of Rattus norvegicus with 12 samples.

Results

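The neurotrophin genes Bdnf, Ntf3 and Gdnf (ligands) and Ntrk2, Ntrk3, Ngfr and Sort1 (receptors) were followed in rat hippocampal neurons after oxygen and glucose were withdrawn (OGD), a culture model of ischemia. These 7 genes, among 15154 named genes on the array, were read by 11 of its 30367 probes, chosen because the transcript record of the probe belonged to the gene. Where a gene had several probes, the probe with the highest mean log2 intensity represented it and the others served as a check. The cultures were prepared from the hippocampi of E18 Wistar rat embryos, kept for 14 to 15 days, and exposed either to 2 h of OGD (glucose-free buffer in an anaerobic chamber) or to control buffer with glucose. They were then returned to conditioned medium for 7 h or 24 h. Each of the 4 groups (control and OGD at 7 h, control and OGD at 24 h) held 3 cultures, each hybridized to 1 one-color Agilent array. The cultures carried no transgene or gene deletion, and the study's methods describe a minority of glial cells in them.

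Neurotrophins are secreted proteins that keep neurons alive and adjust their synapses. BDNF acts mainly through TrkB (encoded by Ntrk2) and neurotrophin-3 (Ntf3) mainly through TrkC (Ntrk3), which are receptor tyrosine kinases, while the p75 receptor (Ngfr) binds all neurotrophins and, together with sortilin (Sort1), their uncleaved proforms. GDNF belongs to a separate family of growth factors that signal through GFRα coreceptors and the kinase Ret, and it is grouped here with the neurotrophins as a survival factor for neurons. Bdnf is transcribed from several promoters, and neuronal activity is known to raise it through cAMP response elements.

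In GRCr8, Bdnf lies at chr3:116619633-116670212, Ntf3 at chr4:160601161-160670623 and Gdnf at chr2:58621327-58647242. Ntrk2 lies at chr17:5560558-5875899, Ntrk3 at chr1:141526192-141913575, Ngfr at chr10:81012077-81030305 and Sort1 at chr2:198609466-198690481. The RefSeq promoter table held 11 windows for 4 of the 7 genes (Bdnf, Ntf3, Gdnf and Sort1). Of these, 3 are shown, for the genes whose control and OGD arrays did not overlap at 7 h on the representing probe. Each is the 250 bases before a transcription start on the plus strand, 5′ to 3′, at chr3:116637608-116637857 (Bdnf, window 4 of 6), chr2:58621077-58621326 (Gdnf) and chr2:198612245-198612494 (Sort1). Capitals mark the cAMP response element half-site TGACG and the hypoxia response element core ACGTG on either strand.
Bdnf: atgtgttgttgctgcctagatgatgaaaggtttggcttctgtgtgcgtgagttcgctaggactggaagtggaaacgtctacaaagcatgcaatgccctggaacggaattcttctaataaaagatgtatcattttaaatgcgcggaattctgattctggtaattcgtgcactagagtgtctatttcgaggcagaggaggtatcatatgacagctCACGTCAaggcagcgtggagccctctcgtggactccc
Gdnf: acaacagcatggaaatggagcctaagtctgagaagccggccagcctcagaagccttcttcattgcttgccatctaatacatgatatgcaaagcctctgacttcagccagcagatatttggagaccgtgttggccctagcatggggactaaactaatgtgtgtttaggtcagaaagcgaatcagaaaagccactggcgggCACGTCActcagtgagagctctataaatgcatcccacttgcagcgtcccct
Sort1: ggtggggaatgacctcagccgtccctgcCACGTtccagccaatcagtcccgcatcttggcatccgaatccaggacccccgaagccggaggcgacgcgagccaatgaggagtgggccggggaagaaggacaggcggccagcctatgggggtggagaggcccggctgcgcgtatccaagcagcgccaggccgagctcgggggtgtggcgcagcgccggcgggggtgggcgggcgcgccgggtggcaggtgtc
In the Bdnf and Gdnf windows both motifs overlapped in the same 7 letters, and the Sort1 window held the hypoxia core alone. The half-site was present in 18.2% and the hypoxia core in 16.6% of all 33469 windows of this length. The full element TGACGTCA (1.59% of windows) and the AP-1 site TGANTCA (6.34%) were in none of the 3. The Bdnf window shown was chosen after the search, as the only one of its 6 with the half-site. Of the others, window 1 held the hypoxia core at 2 positions and window 3 held 1 AP-1 site. The array does not tell the promoters of a gene apart.

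Values below are log2 intensities minus the same array's median over its non-control probes, so that 0 is the array's median probe. A level describes 1 probe and is not compared between genes. The median intensity before centring was 447 to 660 on the control arrays and 234 to 426 on the OGD arrays at 7 h, and 402 to 477 and 131 to 546 at 24 h. The OGD array of replicate 1 was the dimmest of its group at both times, and many results are also given without it. The 15 neuronal marker genes examined and the 9 astrocyte markers with a probe were well above background on all 6 control arrays.

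Groups were compared with limma. A probe passed the test at a Benjamini-Hochberg adjusted p under 0.05 over all probes, and a nominal call was an unadjusted p under 0.05 with a fold of at least 2, the study's own limits. No probe on the array passed the test, the lowest adjusted p being 0.117 at 7 h and 0.209 at 24 h. Of the 7 genes, 0 were nominally called at either time, against 3.63% of all named genes at 7 h and 5.11% at 24 h. Among the 7, 1 gene at each time, Gdnf, was higher with an unadjusted limma p under 0.05, as were 3.89% of all named genes at 7 h and 6.36% at 24 h. The control and OGD arrays did not overlap for 3 of the 7 genes at 7 h (Bdnf and Sort1 lower, Gdnf higher), against 25.5% of all named genes (17.9% lower and 7.58% higher), and for 2 at 24 h (Gdnf higher, Sort1 lower), against 16.6% (7.55% lower and 9.05% higher). The response at 24 h minus that at 7 h had an unadjusted p under 0.05 for 0 of the 7, against 3.42% of named genes.

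**Figure D1:**
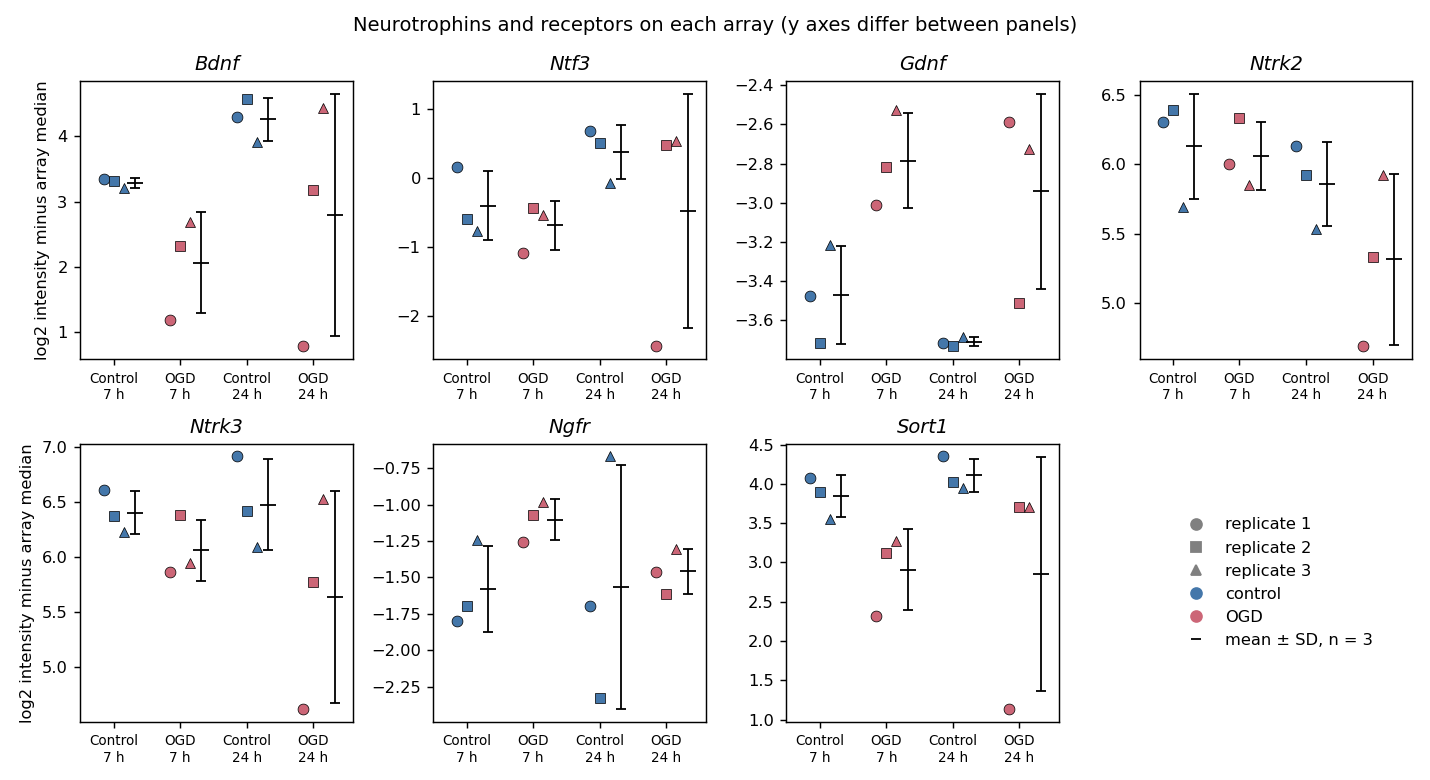
Log2 intensity minus the array median (y axis) of the probe representing each gene, in the 4 groups (x axis). Each point is 1 array with its replicate number as the symbol, and bars are the mean ± SD of 3 arrays. The Gdnf control arrays lie below the OGD arrays at both times, and the OGD array of replicate 1 at 24 h is the lowest point for Bdnf (0.78), Ntf3 (-2.44), Ntrk2 (4.68), Ntrk3 (4.62) and Sort1 (1.13).

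Bdnf, the main activity-regulated ligand of TrkB, was lower in every OGD array than in every control array at 7 h. Its level was 3.34, 3.32 and 3.20 in the controls of replicates 1 to 3 and 1.19, 2.32 and 2.68 after OGD. The mean difference was -1.22 on the log2 scale (SE 0.74, 95% confidence interval -2.85 to 0.40), a 2.33-fold lower intensity, with an adjusted limma p of 0.519. On the 3 slides, each of which carried 1 control and 1 OGD array, the differences ran from -2.15 (replicate 1) to -0.52 (replicate 3), and without the OGD array of replicate 1 the mean difference was -0.78.
At 24 h Bdnf was 4.29, 4.57 and 3.92 in the controls and 0.78, 3.17 and 4.44 after OGD. The groups overlapped, since the OGD array of replicate 3 lay within the range of the controls. The mean difference was -1.46 (SE 0.74, adjusted p 0.403), and it was -0.46 without the OGD array of replicate 1. The wide spread of the 24 h OGD group also enters the shared error of the 7 h comparison. Without that 24 h array the 7 h difference, with the same value, had an unadjusted p of 0.0149 and an adjusted p of 0.144 in limma, and was nominally called. In the controls, Bdnf was 3.29 ± 0.07 at 7 h and 4.26 ± 0.33 at 24 h (SD, n = 3), with no overlap. The 7 h arrays were on slides 1 to 3 and the 24 h arrays on slides 4 to 6, so time and slide cannot be told apart. The share of all named genes without overlap between these control groups was not counted.
The neuronal marker genes lay lower in the same arrays. At 7 h, 12 of 15 had a difference below 0 and 2 were nominally called lower (0 without the OGD array of replicate 1), against 2.07% of named genes. At 24 h, 15 of 15 were below 0 and 7 were nominally called lower (2 without that replicate's OGD array), against 2.38%. Their summed level, relative to the array median, was 696 to 904 in controls and 625 to 859 after OGD at 7 h, and 774 to 1121 and 341 to 765 at 24 h. The part of these genes in the Bdnf values was not tested. In bulk cultures, fewer cells of a type and less RNA per cell cannot be told apart.

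Ntf3, the ligand of TrkC, was lowest at each time on the OGD array of replicate 1. It was 0.17, -0.60 and -0.76 in controls and -1.08, -0.43 and -0.53 after OGD at 7 h. Its values at 24 h were 0.69, 0.51 and -0.07 in controls and -2.44, 0.48 and 0.54 after OGD. The groups overlapped at both times. The mean difference was -0.29 (SE 0.67, adjusted limma p 0.874) at 7 h and -0.85 (SE 0.67, adjusted p 0.569) at 24 h. The 95% confidence intervals were wide, from -1.76 to 1.19 at 7 h and from -2.33 to 0.63 at 24 h. Without the OGD array of replicate 1 the differences were -0.09 at 7 h and 0.13, on the other side of 0, at 24 h. The group means ran from -0.68 (OGD at 7 h) through -0.47 (OGD at 24 h) and -0.40 (control at 7 h) to 0.38 (control at 24 h), and neighbors in this order overlapped in their arrays.

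Gdnf, a survival factor for several neuron types, was the only one of the 7 genes whose OGD arrays all lay above the control arrays at both times. At 7 h it was -3.48, -3.72 and -3.22 in controls and -3.01, -2.82 and -2.52 after OGD. At 24 h it was -3.71, -3.73 and -3.68 in controls and -2.59, -3.51 and -2.73 after OGD. The OGD array of replicate 2 at 24 h was the one nearest to its controls. Before centring, the 7 h intensities were 26.4, 16.4 and 28.7 in controls and 15.0, 25.6 and 35.2 after OGD. The 24 h intensities were 14.3, 16.6 and 16.4 in controls and 12.5, 15.4 and 36.0 after OGD. The groups overlapped before centring at both times. At 24 h the OGD array of replicate 1 was the dimmest and became the highest OGD value once its array median was subtracted. Without that array the 24 h difference was 0.59 (unadjusted limma p 0.0443).
The mean difference was 0.69 (SE 0.26, 1.61-fold, unadjusted p 0.0218, adjusted limma p 0.345) at 7 h and 0.77 (SE 0.26, 1.70-fold, unadjusted p 0.0124, adjusted p 0.290) at 24 h. The OGD array was higher on all 3 slides at each time, as it was for 20.1% of named genes at 7 h and 17.9% at 24 h. Both differences were below the 2-fold limit. At 24 h the unadjusted p was above 0.05 in limma with quantile normalization (difference 0.51, p 0.0771), with normexp background correction (0.58, p 0.149) and on the slides of replicates 2 and 3 (0.59, p 0.106). It was also above 0.05 by the methods' t-test (p 0.0564). The signal was dim, with intensities between 12.5 and 36.0, and the probe was well above background on 1 and 2 of 3 arrays (control and OGD) at 7 h and on 2 and 3 at 24 h. Scaling the arrays to a spike-in probe in place of the median moved the median difference of all probes to -0.85 at 7 h and -1.02 at 24 h. On that scale Gdnf was below 0 (-0.11 and -0.26) but above the median probe.
Markers of vascular cells and fibroblasts, 9 of 11 of them well above background on all control arrays, had a summed level of 43.1 to 145 in controls and 60.6 to 186 after OGD at 7 h, and of 36.7 to 141 and 131 to 237 at 24 h. Their members did not move alike. At 7 h, 7 of 11 had a difference below 0 (median -0.66) and 2 were nominally called lower, against 2.07% of named genes. The called genes were Cldn5 of endothelial tight junctions and Rgs5 of pericytes. Cldn5 was well above background on 2 of 3 control arrays, Rgs5 on 1 of 3, and neither on any OGD array, so neither is given a fold. Rgs5 was not called without the OGD array of replicate 1. At 24 h, 7 of 11 were above 0 (median 0.32, and -0.01 without that array), and 1 was called higher, Pdgfrb of pericytes and fibroblasts (1.34, and 1.35 without that array). The share of named genes called higher at 24 h was 2.74%. The collagen genes Col1a1, Col1a2 and Col3a1 were higher in their means by 0.63 to 0.86 at 7 h and by at least 1.43 at 24 h, and none of them was called.
The microglial markers, 8 of 10 of them well above background on all control arrays, summed to 15.7 to 16.4 and 15.8 to 28.8 at 7 h, and to 20.9 to 25.4 and 25.2 to 35.4 at 24 h. At 7 h, 1 of 10 was called higher, Cx3cr1 (1.02, and 0.85 and not called without the OGD array of replicate 1), and at 24 h 0 were called and 9 of 10 lay above 0 (median 0.24). Of all named genes, 1.56% were called higher at 7 h, and 5.11% were called in either direction at 24 h. Ptprc was well above background on no array and Rgs5 on none at 24 h. The 9 astrocyte markers summed to 929 to 1059 in controls and 1154 to 1471 after OGD at 7 h. Their sums at 24 h were 980 to 1169 and 921 to 1226. At 7 h, 8 of 9 lay above 0 (median 0.13, and 0.08 without the OGD array of replicate 1). At 24 h, 7 of 9 lay below 0 (median -0.12, and 0.13 without that array). Of the 9, 0 were nominally called at either time, against 3.63% of named genes at 7 h and 5.11% at 24 h. The part of these cells in the Gdnf values was not tested.

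Ntrk2, which encodes TrkB as a full-length kinase and as shorter forms that lack the kinase, was read by 3 probes that did not move alike. The representing probe, A_42_P538400, was 6.31, 6.39 and 5.69 in controls and 6.0, 6.33 and 5.85 after OGD at 7 h. The same probe at 24 h was 6.13, 5.92 and 5.53 in controls and 4.68, 5.33 and 5.93 after OGD. The groups overlapped, with a difference of -0.07 (SE 0.32, adjusted limma p 0.939) at 7 h and -0.55 (SE 0.32, adjusted p 0.460) at 24 h, the latter being -0.23 without the OGD array of replicate 1. Centring on the 75th percentile turned the 7 h difference to 0.04.
The probe A_42_P631184, designed on another transcript record of the gene, was 4.92, 4.49 and 4.49 in controls and 5.05, 4.83 and 4.99 after OGD at 7 h. By 24 h it was 4.49, 4.97 and 5.06 in controls and 4.24, 5.24 and 5.37 after OGD. Its differences were 0.32 (adjusted p 0.688) and 0.11 (adjusted p 0.910), with overlap at both times.
The remaining probe, A_64_P058883, which shares its record with the representing probe, was 4.11, 4.21 and 4.0 in controls and 2.74, 3.39 and 3.24 after OGD at 7 h. The 24 h values were 4.31, 4.29 and 3.97 in controls and 2.23, 3.68 and 3.39 after OGD. Every OGD array lay below every control array at both times, as for 15.5% of all probes at 7 h and 7.02% at 24 h. The difference was -0.98 (SE 0.33, unadjusted p 0.0142, adjusted limma p 0.318) at 7 h and -1.09 (SE 0.33, unadjusted p 0.00795, adjusted p 0.280) at 24 h. This probe was not chosen to represent the gene, and it is singled out after its values were seen.
Differences between probes on the same array do not depend on how arrays are centred. The level of A_64_P058883 minus that of A_42_P631184 was -0.53 ± 0.27 in controls and -1.83 ± 0.44 after OGD at 7 h, and -0.65 ± 0.45 and -1.85 ± 0.25 at 24 h (SD, n = 3). The shift was -1.30 at 7 h and -1.20 at 24 h, with no overlap at either time, and it was -1.07 and -1.12 without the OGD array of replicate 1. Its two-sided exact permutation p was 0.1 at each time, the smallest that 3 against 3 arrays allow. Against A_42_P538400 the shift was -0.91 at 7 h, with no overlap (exact permutation p 0.1), and -0.54 at 24 h, with overlap (exact permutation p 0.2). These 4 p-values are among 10 for pairs of probes of a gene, and they are unadjusted. The part of each transcript form in these signals was not analysed here, as no probe sequences were used.

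**Figure D2:**
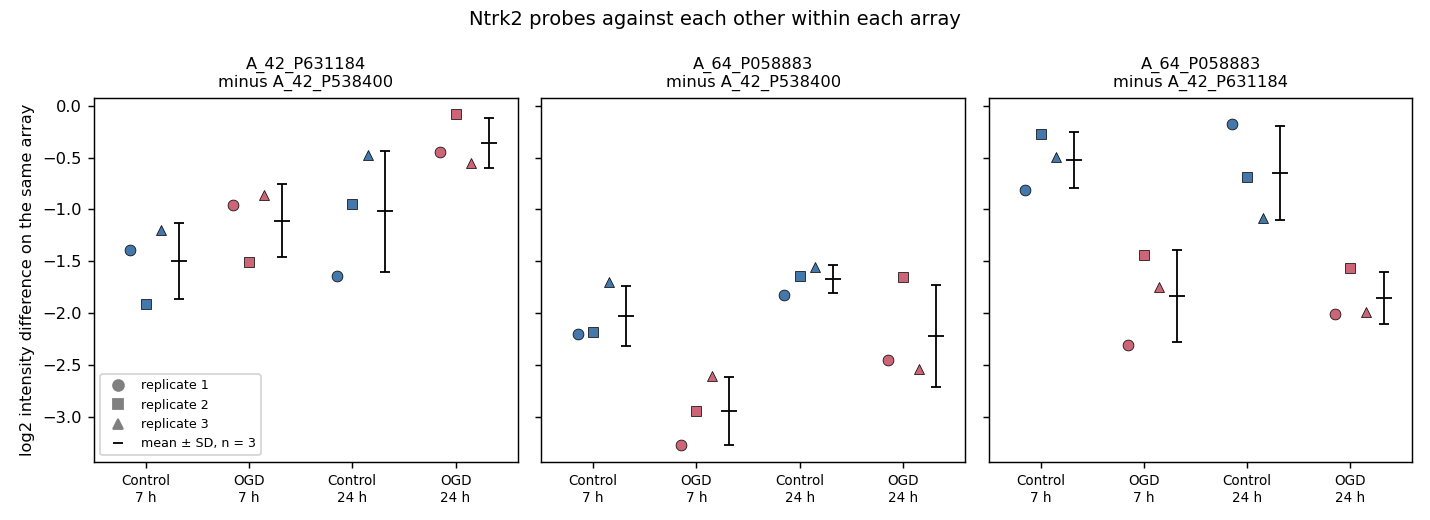
Log2 intensity of one Ntrk2 probe minus that of another on the same array (y axis), for the 3 probe pairs, in the 4 groups (x axis). Points are arrays, symbols are replicate numbers and bars are the mean ± SD of 3 arrays. In the right panel the OGD arrays lie below the control arrays at both times (means of -1.83 against -0.53 at 7 h and -1.85 against -0.65 at 24 h).

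Ntrk3, which encodes TrkC, the receptor of neurotrophin-3, was 6.61, 6.38 and 6.23 in controls and 5.86, 6.38 and 5.95 after OGD at 7 h. At 24 h it was 6.92, 6.42 and 6.09 in controls and 4.62, 5.77 and 6.53 after OGD. The groups overlapped at both times. The difference was -0.34 (SE 0.41, adjusted limma p 0.770) at 7 h and -0.84 (SE 0.41, adjusted p 0.397) at 24 h, and the latter was -0.33 without the OGD array of replicate 1. The other Ntrk3 probe, A_64_P127858, gave -0.48 (adjusted limma p 0.653) and -0.89 (adjusted p 0.365). Its groups did not overlap at either time, as for 15.5% of all probes at 7 h and 7.02% at 24 h (OGD lower). At 24 h its lowest control array (4.91) and highest OGD array (4.88) were close. Within arrays the Ntrk3 probes shifted against each other by -0.14 at 7 h and -0.06 at 24 h, with exact permutation p-values of 0.4 and 0.9.

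Ngfr, which encodes the p75 receptor, was -1.80, -1.70 and -1.25 in controls and -1.26, -1.07 and -0.98 after OGD at 7 h. At 24 h it was -1.70, -2.33 and -0.67 in controls and -1.46, -1.61 and -1.30 after OGD. At 7 h the control array of replicate 3 lay just above the lowest OGD array, and at 24 h the OGD arrays lay within the range of the controls. The difference was 0.48 (SE 0.35, adjusted limma p 0.606) at 7 h and 0.11 (SE 0.35, adjusted p 0.936) at 24 h. At 7 h the OGD array was higher on all 3 slides, as for 20.1% of named genes. Scaled to the spike-in probe the 7 h and 24 h differences were -0.32 and -0.92, above the median probe on that scale, and quantile normalization gave -0.000988 at 24 h.

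Sort1, which encodes sortilin, a sorting receptor that also directs BDNF into secretory granules, was lower in every OGD array than in every control array at both times on its representing probe. At 7 h it was 4.08, 3.89 and 3.56 in controls and 2.32, 3.12 and 3.28 after OGD. At 24 h it was 4.35, 4.03 and 3.95 in controls and 1.13, 3.71 and 3.71 after OGD. At 24 h the OGD arrays of replicates 2 and 3 were close to the controls and that of replicate 1 was far below.
The difference was -0.94 (SE 0.59, 1.91-fold lower, adjusted limma p 0.534) at 7 h and -1.26 (SE 0.59, 2.39-fold lower, adjusted p 0.375) at 24 h, and the latter was -0.40 without the OGD array of replicate 1. Without the OGD array of replicate 1 at 24 h the 7 h difference, with the same value and below the 2-fold limit, had an unadjusted limma p of 0.00489. Over the 12 fits with 1 array left out, this unadjusted limma p ran from 0.00489 to 0.350. The other Sort1 probe, A_44_P445572, did not show this. It gave 0.01 (SE 0.20, 95% confidence interval -0.44 to 0.46, adjusted p 0.989) at 7 h and -0.18 (SE 0.20, adjusted p 0.704) at 24 h. Within arrays the Sort1 probes shifted against each other by 0.95 at 7 h with no overlap (exact permutation p 0.1) and by 1.08 at 24 h with overlap (exact permutation p 0.2, and 0.42 without the OGD array of replicate 1).

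**Figure D3:**
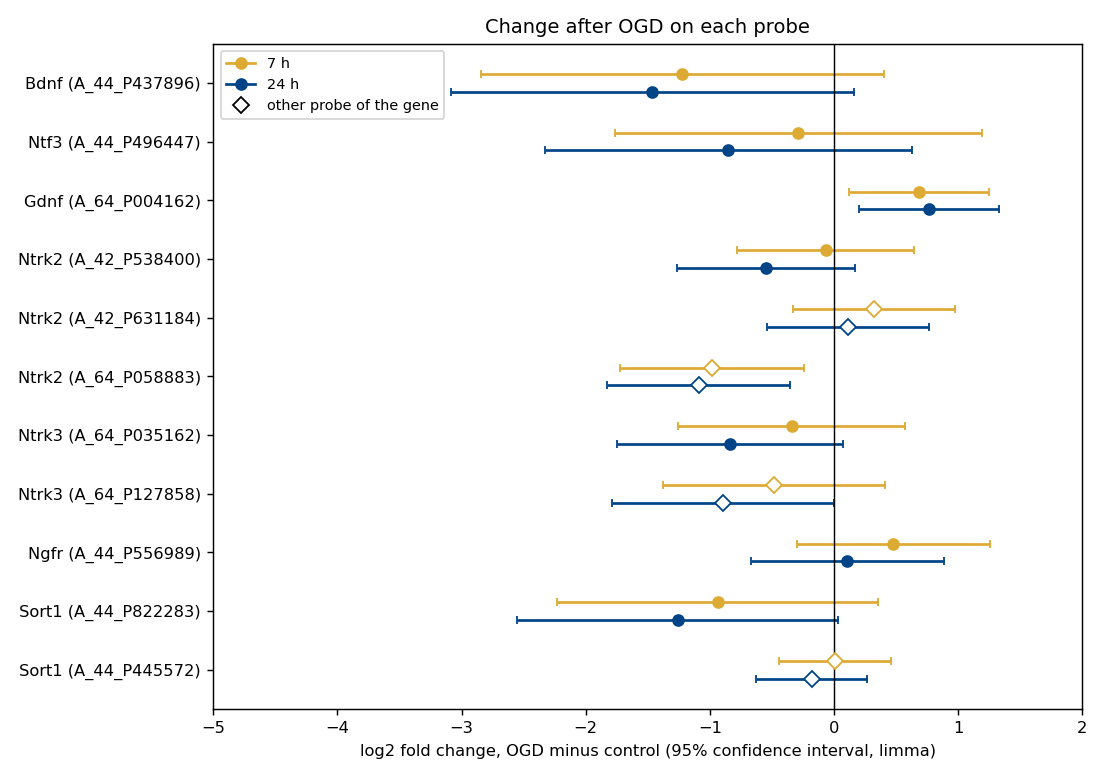
Log2 fold change of OGD against control (x axis) for each of the 11 probes (y axis) at 7 h and 24 h. Points are limma estimates and bars their 95% confidence intervals, and open symbols are probes that do not represent the gene. The intervals of Gdnf and of the Ntrk2 probe A_64_P058883 lie on one side of 0 at both times (for Gdnf from 0.12 to 1.25 at 7 h).

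Over the 4 groups, the order of the mean Bdnf level was 2.06 ± 0.78 (OGD at 7 h), 2.80 ± 1.86 (OGD at 24 h), 3.29 ± 0.07 (control at 7 h) and 4.26 ± 0.33 (control at 24 h). Among neighbors in this order only the control groups did not overlap. The order for Gdnf was -3.71 ± 0.02 (control at 24 h), -3.47 ± 0.25 (control at 7 h), -2.94 ± 0.50 (OGD at 24 h) and -2.78 ± 0.24 (OGD at 7 h), with overlap between all neighbors.
For Sort1 it was 2.85 ± 1.49 (OGD at 24 h), 2.91 ± 0.51 (OGD at 7 h), 3.84 ± 0.26 (control at 7 h) and 4.11 ± 0.21 (control at 24 h), and only the middle pair did not overlap. For Ngfr it was -1.58 ± 0.30 (control at 7 h), -1.57 ± 0.84 (control at 24 h), -1.46 ± 0.15 (OGD at 24 h) and -1.10 ± 0.14 (OGD at 7 h), and the OGD groups did not overlap. Ntrk2 (5.31 ± 0.62 after OGD at 24 h to 6.13 ± 0.38 in controls at 7 h) and Ntrk3 (5.64 ± 0.96 after OGD at 24 h to 6.48 ± 0.42 in controls at 24 h) overlapped between all neighbors. These are means ± SD of 3 arrays and were not tested. The share of all named genes without overlap between groups of different times was not counted. The 7 h and 24 h arrays were on different slides, so any difference between the times cannot be told apart from one between slides.

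The other ligands and receptors of both families were 16 listed genes, 15 with a probe. At 7 h, 3 of 15 were nominally called lower and 0 higher, against 2.07% and 1.56% of named genes, with a median difference of -0.17 against -0.11 for all named genes. Gfra4, the coreceptor of persephin, was lower by -1.58 (2.99-fold, adjusted limma p 0.226), and by -1.64 without the OGD array of replicate 1, but was 0.0520, on the other side of 0, with normexp background correction. Sorcs3, a receptor related to sortilin, was lower by -1.54 (adjusted p 0.333), and was no longer called without that array (-1.33). Ntf4, the other ligand of TrkB, was above background on 2 of 3 control arrays and on no OGD array at 7 h, and is given no fold. With normexp its difference was 0.71, so that Ntf4 and Gfra4, 2 of the 3 called genes, lay above 0 under that setting.
At 24 h, 1 of the 15 was nominally called higher and 1 lower, against 2.74% and 2.38% of named genes, with a median of -0.24 against -0.03. Nradd, a relative of the p75 receptor, was higher by 1.32 (2.50-fold, adjusted limma p 0.289). Sorcs2, a p75 partner that binds proBDNF, was lower by -1.11 (2.17-fold, adjusted p 0.349), and by -0.53 without the OGD array of replicate 1, where it was no longer called. Among those not called, Ret differed by 0.12 and -0.68 and Gfra1, the GDNF coreceptor, by -0.29 and -0.20 at 7 h and 24 h. The relatives of GDNF differed by 0.05 and 0.34 (Nrtn), -0.24 and -0.57 (Artn) and -0.17 and -0.24 (Pspn). Further receptors differed by 0.16 and 0.01 (Sorcs1), -0.42 and -1.17 (Sorl1) and -0.09 and -0.62 (Gfra2). Without the OGD array of replicate 1, the 24 h differences were 0.11 for Ret, on the other side of 0, -0.21 for Sorl1, 0.05 for Nrtn, 0.30 for Sorcs1 and -0.13 for Pspn. At 7 h without that array, Ret (-0.00484), Nrtn (-0.20) and Gfra2 (0.04) changed side, and Artn and Pspn were -0.39 and -0.33. Gfra3 was well above background on 1 of 3 arrays in 3 of the groups and on none of the controls at 24 h.

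**Figure D4:**
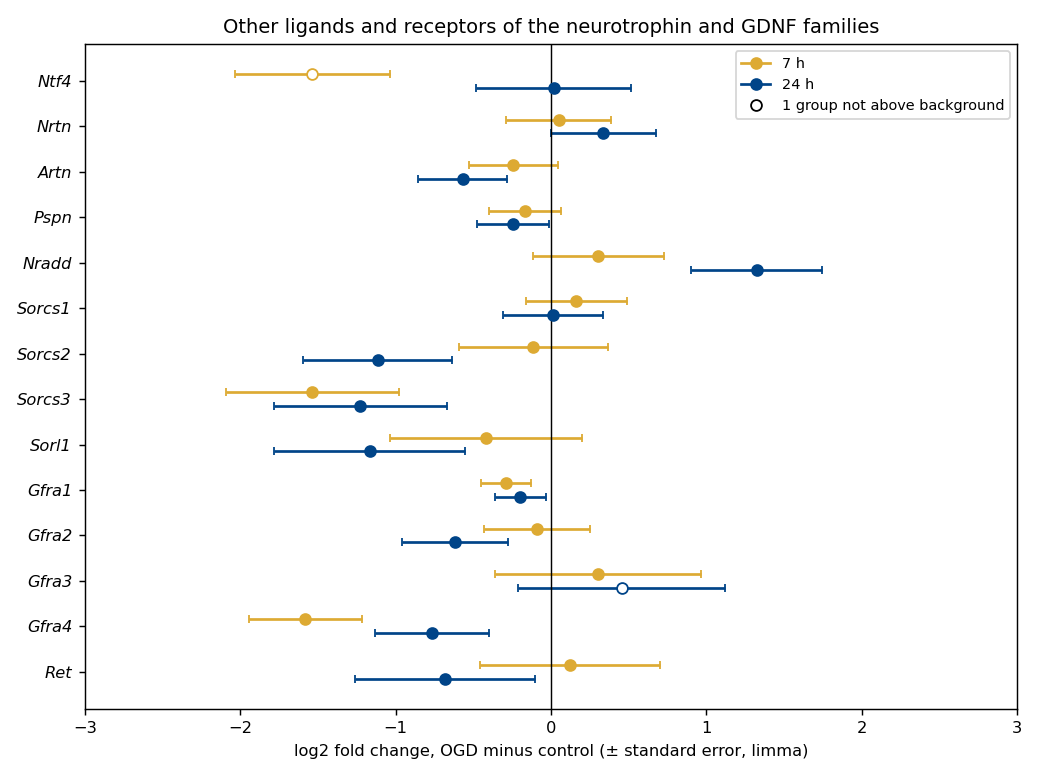
Log2 fold change of OGD against control (x axis) for 14 other ligands and receptors (y axis) at 7 h and 24 h. Points are limma estimates, bars are ± 1 standard error, and an open point marks a comparison in which 1 group was not above background on any array. Gfra4 and Sorcs3 lie lowest at 7 h among filled points (-1.58 and -1.54), and Nradd lies highest at 24 h (1.32).

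The enzymes that cut, sort and release neurotrophins held the most called genes among the 6 pathway lists. Of 23 with a probe, the nominal calls were 3 genes up and 2 down at 7 h and 3 up and 3 down at 24 h, with medians of -0.16 and -0.37. Over all named genes, 1.56% were called up and 2.07% down at 7 h, and 2.74% and 2.38% at 24 h. Plau (urokinase, which activates plasmin) was higher by 2.25 at 7 h (4.76-fold, adjusted limma p 0.270) and by 3.18 at 24 h (9.03-fold, adjusted p 0.252). Mmp3, a matrix protease, was higher by 1.78 and 1.55, and at 24 h was no longer called without the OGD array of replicate 1 (1.05).
Among the lower genes, Pcsk2, a proprotein convertase of secretory granules, differed by -1.53 and -1.64. Mmp9, a matrix protease that can cleave proBDNF, differed by -2.12 and -1.19, and Serpini1 (neuroserpin, a neuronal inhibitor of tissue plasminogen activator) by -1.33 at 24 h. Without the OGD array of replicate 1, 1 lower call was left at 7 h and 0 at 24 h. Mmp9 was well above background on 1 of 3 OGD arrays at 7 h, and with normexp background correction it was 0.275 and 0.271, on the other side of 0. Plau was well above background on 2 of 3 control arrays at 24 h. Its control mean there was -5.09, while the lowest values well above background on these arrays were -4.00, -4.53 and -4.63. With normexp the Plau difference was 1.45 at 7 h and 0.977 at 24 h. Without the OGD array of replicate 1 it was 2.07 and 2.57.

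Partners and effectors of the p75 receptor, 20 with a probe, had 2 nominal calls at 7 h and 3 at 24 h, all lower, with medians of -0.14 and -0.11. Over all named genes, 2.07% were called lower at 7 h and 2.38% at 24 h. Lingo1 and Rtn4r, which form the Nogo receptor complex with p75, differed by -1.14 and -1.25 at 7 h and by -1.12 and -1.36 at 24 h. Mapk10, a neuronal JNK kinase, differed by -1.04 at 24 h. Without the OGD array of replicate 1, 0 were called at either time, and Rtn4r and Mapk10 were lower by -0.78 and -0.79 at 24 h.
Of 31 Trk signaling adaptors and enzymes, 0 were nominally called at either time, while an unadjusted limma p under 0.05 was reached by 3 (all lower) at 7 h and 3 (1 higher, 2 lower) at 24 h. Of 22 transcription regulators of Bdnf, 0 were called at either time, while an unadjusted p under 0.05 was reached by 1 (lower) at 7 h and 0 at 24 h. The medians of these lists were -0.03 and -0.24, and 0.05 and -0.08. Over all named genes, 3.63% were nominally called at 7 h and 5.11% at 24 h. The share of all named genes lower at an unadjusted p under 0.05 is not given here.
Of 20 genes known to be induced by neurotrophins, 1 (higher) was called at 7 h and 3 (2 higher, 1 lower) at 24 h, with medians of 0.28 and -0.34. Plaur, the urokinase receptor, was higher by 1.29 and 1.6, Fosl1, an AP-1 subunit, was higher by 2.50 at 24 h, and Cort (cortistatin, a neuropeptide) was lower by -1.28 at 24 h. Without the OGD array of replicate 1, 0 were called at 7 h, and 1 higher (Fosl1, 1.40) and 0 lower at 24 h.

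The genes whose levels followed each of the 7 most closely over the 12 arrays were ranked by Pearson's r among genes well above background on all arrays. These arrays share their brightness and groups, so the values describe the arrays and no test is given. Bdnf was followed by Perm1, Kifbp and Rgs4 (r of 0.99 each), Sort1 by Etnk1, Epha4 and Rsph9 (0.99 each) and Ntrk3 by Gad1, Cdip1 and Fry (0.99, 0.98 and 0.98). Ntf3 was followed by Prkag2, Gtdc1 and Ddx42 (0.99, 0.98 and 0.98) and Ntrk2 by Bpgm, Tacr3 and Cltc (0.98, 0.97 and 0.97). Gdnf was followed by Sox13, Cd93 and Gpr4 (0.94, 0.93 and 0.93), of which Cd93 and Gpr4 are known from endothelial cells. The endothelial markers did not all move as Gdnf did. Pecam1, Cldn5 and Kdr lay below 0 at both times. Cdh5 lay above 0 (0.39 at 7 h and 0.35 at 24 h, the latter -0.01 without the OGD array of replicate 1). Ngfr had the weakest followers, Anxa3, Ftmt and Nupr1 (0.79, 0.78 and 0.78). Leaving out the OGD array of replicate 1 at 24 h left r between 0.78 and 0.99.

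**Figure D5:**
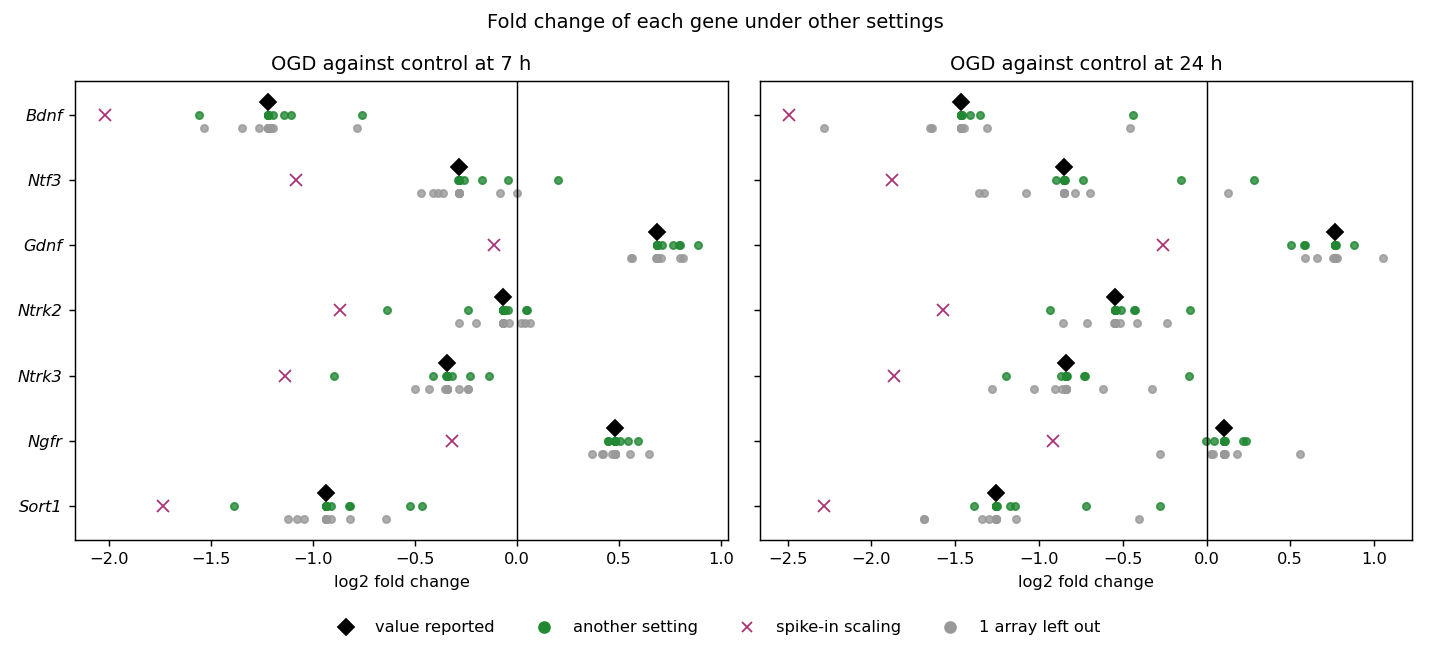
Log2 fold change of OGD against control (x axis) of each gene (y axis) at 7 h and 24 h as reported (diamonds), under other settings (green), scaled to the spike-in probe (crosses) and with 1 array left out (gray). The Gdnf values stay above 0 except with spike-in scaling (-0.11 and -0.26), and the Bdnf values at 24 h run from -2.49 to -0.44.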

How the data were processed

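RNA of each culture was labeled with Cy3 and hybridized to 1 array, and the authors read the 12 arrays with Feature Extraction 10.5.1.1. The deposited intensity of each spot had been background-subtracted by that software. The deposited log2 values had been median-centred by the authors, and per array lay within 0.01 of 1 constant from the intensities for at least 99.9967% of probes. Here, spots with outlier flags were left out, intensities were put on the log2 scale, replicate spots were averaged per probe and the array median was subtracted. All 4 groups were fitted in limma 3.58.1 (R 4.3.3) with empirical Bayes moderation, and two-sided p-values were adjusted over 30367 probes. Probes were named through RefSeq (18004 with a symbol, 12363 without). The fit was tested on simulated data. Named genes were the 7 genes, the listed ligands and receptors, and nominally called genes of the other lists. Some listed genes are counted in their lists but not reported here by name. The genes and lists were chosen with earlier results of these data known. The number of arrays limits the precision. Each slide held 1 control and 1 OGD array with the same replicate number.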

Additional observations from a re-analysis of the deposited data

How the results depend on the processing

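The number of the 7 genes nominally called (0 at each time) was 2 at 7 h and 1 at 24 h with normexp background correction, 1 at 7 h with limma on each time alone, and 1 at 24 h with centring on the 75th percentile and 2 with spike-in scaling. Leaving out 1 array gave 0 to 1 at 7 h (Bdnf, without the OGD array of replicate 1 at 24 h) and 0 to 3 at 24 h (3 without the OGD array of replicate 3 and 2 without that of replicate 2). The number at an unadjusted p under 0.05 (1 at each time) was 0 and 2 with spike-in scaling at 7 h and 24 h, 3 at 7 h with normexp (1 at 24 h, where it was Sort1 and not Gdnf), 2 and 0 by the methods' t-test, 3 at 7 h with limma on each time alone, 2 and 0 on the slides of replicates 2 and 3, and at 24 h 2 with the 75th percentile and 0 with quantile normalization. Leaving out 1 array gave 0 to 3 and 1 to 5. The methods' t-test had 1 probe at 7 h and 0 at 24 h after Benjamini-Hochberg, and none of the 7 genes. Gdnf at 7 h missed an unadjusted p of 0.05 without the control array of replicate 2 (0.0831) or the OGD array of replicate 3 (0.0826). Over all probes, calls numbered 1136 at 7 h and 1721 at 24 h. They were 353 and 538 with spike-in scaling, 2918 and 743 with normexp, 634 at 24 h by the methods' t-test and 543 at 24 h on the slides of replicates 2 and 3, and ranged from 664 to 1750 and from 814 to 3045 with 1 array left out. The cause of these differences was not tested.

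Some differences changed side of 0. On the slides of replicates 2 and 3, Ntf3 was 0.20 at 7 h and 0.29 at 24 h and Ntrk2 was 0.0488 at 7 h. Spike-in scaling gave -0.11 and -0.26 for Gdnf and -0.32 and -0.92 for Ngfr at 7 h and 24 h. Centring on the 75th percentile, which moved the median of all probes by 0.11 at each time, gave 0.0449 for Ntrk2 at 7 h, and quantile normalization gave -0.000988 for Ngfr at 24 h. The other probes gave 0.32 and 0.11 for Ntrk2 and 0.00857 for Sort1 at 7 h. The response at 24 h minus that at 7 h became 0.10 (Bdnf), -0.31 (Gdnf) and 9.15e-05 (Sort1) with normexp, 0.32 (Bdnf), 0.0882 (Ntf3), -0.21 (Gdnf), 0.0328 (Ntrk3) and 0.25 (Sort1) on the slides of replicates 2 and 3, and for Gdnf -0.25 with quantile normalization and -0.15 with spike-in scaling. With 1 array left out, values that changed side ranged from -0.29 to 0.0621 for Ntrk2 at 7 h, and at 24 h from -1.36 to 0.13 for Ntf3 and from -0.28 to 0.56 for Ngfr. The differences of the responses ranged from -1.06 to 0.76 (Bdnf), -1.07 to 0.42 (Ntf3), -0.10 to 0.37 (Gdnf), -0.94 to 0.0159 (Ntrk3), -0.75 to 0.0784 (Ngfr) and -0.75 to 0.54 (Sort1).

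The main fit did not pair arrays by replicate number. Deviations of arrays with the same number on 1 slide correlated by -0.05 to 0.17. The labels do not say whether such arrays came from the same culture preparation, and this correlation cannot decide it. With the slide as a fixed replicate block 1158 probes were called at 7 h and 1590 at 24 h, with the replicate number as a block 1261 and 1778, and with the slide as a random block 1147 and 1735. The block changed no call among the 7 genes. Normexp was chosen on median spot signals after seeing the data, as were the slides of replicates 2 and 3 and the counts without an OGD array of replicate 1. Normexp on mean spot signals was not run. Dim signal limits Gdnf, Ntf4, Gfra3, Cldn5, Rgs5, Mmp9 and, at 24 h, Plau.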
